A study of Mus musculus with 48 samples.

Results

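The 8 genes described here are protein-coding mouse genes whose transcripts mark fat cells, followed across 48 bulk tumor RNA libraries. They are Adipoq, Lep, Cfd, Retn, Plin1, Plin4, Cidec and Fabp4, matched by GENCODE vM21 symbol among 55450 genes in the count table. The rule that lists them uses their names and no measured value, though it was written with earlier results of these data known. They serve as a measure of the host fat that was taken along with each tumor. Each library came from 1 tumor of 1 mouse, with 3 tumors in each of 16 groups. In the first experiment, 30 tumors grew in wild-type (WT, C57BL/6J) mice. These were untreated at 0 h, and untreated, anti-PD-1-treated or IgG-treated at 6 h, day 1 and day 3. In the second experiment, 9 tumors grew in WT and 9 in iNOS KO mice, and were untreated, anti-PD-1-treated or IgG-treated at day 7. All 16 groups share the tumor, B16-D5 melanoma cells placed under the skin of the flank 8 days before therapy began, so the tumor cells were the same in WT and iNOS KO hosts and the deletion was in the host alone. The mice arrived at 4 weeks of age and were kept for 2 weeks. Antibody (250 µg in 200 µL) was given on days 0 and 3, anti-PD-1 being a checkpoint-blocking antibody and IgG its control. The sample titles name the 6 h tumors as day 0 and give no time for the second experiment, whose day 7 comes from the study's description of that experiment.

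White fat cells store triglyceride in 1 large droplet, which they fill after meals and empty on demand through lipases at the droplet surface. They also secrete hormones, the adipokines. The flank skin of a mouse carries a layer of fat, and a mammary fat pad lies close by, so a subcutaneous tumor grows next to fat cells. Adipoq encodes adiponectin, Lep encodes leptin, Cfd encodes adipsin (complement factor D) and Retn encodes resistin, all secreted by fat cells in mice. Plin1 and Plin4 encode perilipins, which coat the droplet, and Cidec encodes a droplet protein that lets droplets fuse and grow. Fabp4 encodes the fatty acid-binding protein of fat cells, which capillary endothelium and some macrophages also express.

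The genes lie apart from one another on GRCm38. Adipoq is at chr16:23146536-23158028, Lep at chr6:29060220-29073877, Cfd at chr10:79890853-79892655, Retn at chr8:3655770-3660110, Plin1 at chr7:79720218-79732903, Plin4 at chr17:56100591-56109803, Cidec at chr6:113424634-113435760 and Fabp4 at chr3:10204088-10208576. Lep and Cidec share chromosome 6 and no 2 members are neighbors. Promoter windows (250 before to 50 after the RefSeq start, build GRCm38.p6) were found for 7 of the 8 members, with 2 windows for Cidec. Fabp4 had no entry. Bases before the start are shown for 3 members whose windows held a match to a searched sequence. The capitals mark TTGCNNAA, a core of the sites that C/EBP factors bind, in Lep (chr6:29059971-29060220, plus strand) and Plin1 (chr7:79732907-79733026, minus strand), and CCAAT on either strand in Adipoq (chr16:23146286-23146535, plus strand). For Plin1 only the part of the window farthest from the start is shown. It holds the match at position -187 and not the one at position -58.
Lep: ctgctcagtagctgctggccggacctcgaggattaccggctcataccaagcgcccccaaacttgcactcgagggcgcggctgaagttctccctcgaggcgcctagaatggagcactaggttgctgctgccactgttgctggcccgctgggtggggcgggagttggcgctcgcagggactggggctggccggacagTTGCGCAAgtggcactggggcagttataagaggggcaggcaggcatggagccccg
Plin1: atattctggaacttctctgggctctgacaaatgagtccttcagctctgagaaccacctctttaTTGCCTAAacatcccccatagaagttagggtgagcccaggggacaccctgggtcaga
Adipoq: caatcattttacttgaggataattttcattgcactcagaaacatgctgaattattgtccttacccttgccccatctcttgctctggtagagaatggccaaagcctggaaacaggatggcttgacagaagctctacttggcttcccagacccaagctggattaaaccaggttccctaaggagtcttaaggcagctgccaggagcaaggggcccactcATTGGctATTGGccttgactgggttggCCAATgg

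Searched on both strands over whole windows, TTGCNNAA was present in Lep at position -55 from the start, in Plin1 at positions -187 and -58, and in 1 Cidec window at position -198. Of 32851 windows of the same length, 10.8% held it. CCAAT was present 3 times in Adipoq, at positions -34, -27 and -7, and 1 time in Plin4 at position -18, against 37.4% of all windows. Neither AGGTCA, an element of the sites that PPARγ and other nuclear receptors bind (16.3% of windows), nor TATAAA (13.6% of windows) was present in any member's window. The windows of Retn and Cfd and the other Cidec window held none of the sequences searched. All matches given are matches of letters and not measured sites.

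Libraries of the time course held 25574203 to 47687872 counts on genes, and those of day 7 held 11625862 to 40959309. Melanoma genes were high throughout, with a summed level of 12200 CPM or more in every library (CPM, read counts scaled to the TMM-adjusted library total). Some libraries stood apart. The library of WT untreated 0 h replicate 3 held 8523 CPM of skeletal muscle genes and 7205 CPM of keratinocyte genes, where the medians of the time course were 30.9 and 5.67. WT IgG day 1 replicate 6 held 9939 CPM of muscle and 1063 CPM of keratinocyte genes, and WT untreated 0 h replicate 2 held 4652 and 434 CPM. At day 7, 3 libraries held counts on receptor genes of smell and taste (olfactory, vomeronasal and taste receptors), which belong to sensory tissue, at 3710 CPM (WT anti-PD-1 replicate 3), 1304 CPM (WT anti-PD-1 replicate 4) and 916 CPM (iNOS KO untreated replicate 1). The other 15 were at 232 CPM or less. These receptor values alone are scaled to plain library totals. Nos2, the gene that encodes iNOS, was at 1.16 to 5.95 CPM in the 9 tumors labelled iNOS KO and at 1.41 to 7.43 CPM in the 9 WT tumors of day 7, with overlap. Its level did not tell the hosts apart. The source of these transcripts was not tested, and every direction between hosts rests on the sample titles.

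As a sum, the adipocyte genes were detected in every tumor, and their amount varied strongly from tumor to tumor. Single members were at 3 counts or fewer in some libraries, 4 of 8 in WT untreated day 7 replicate 3. Summed over the 8 genes, the level ran from 2.19 to 592 CPM in the time course, a 271-fold range with a median of 83.8. At day 7 it ran from 15.2 to 131 CPM, an 8.63-fold range with a median of 43.9. Fabp4 made up a median of 38.6% of the sum in the time course and of 58.8% at day 7. Without Fabp4, the sum ran from 1.82 to 435.5 CPM in the time course, a 239-fold range with a median of 48.1. At day 7 the sum without Fabp4 ran from 0.905 to 78.0 CPM, an 86.1-fold range with a median of 17.9. In bulk RNA, fewer fat cells and less RNA per fat cell cannot be told apart.
Much of the range lay between the 3 tumors of single groups. Untreated WT tumors were at 37.5, 100.5 and 592 CPM at 0 h, at 16.7, 52.4 and 27.1 at 6 h, at 209, 189 and 30.3 at day 1 and at 36.96, 153 and 244 at day 3. With anti-PD-1 they were at 88.9, 42.3 and 54.9 CPM at 6 h, at 111, 78.6 and 171 at day 1 and at 71.9, 2.19 and 86.4 at day 3. With IgG they were at 52.7, 44.8 and 133 CPM at 6 h, at 553, 37.6 and 204 at day 1 and at 85.6, 365 and 82.0 at day 3. The highest tumor (592 CPM) shared its group with one at 37.5 CPM, and the lowest (2.19 CPM) shared its group with one at 86.4 CPM.
At day 7, untreated WT tumors were at 27.99, 31.3 and 15.2 CPM, anti-PD-1-treated ones at 108, 52.2 and 49.0, and IgG-treated ones at 27.1, 29.9 and 131. In iNOS KO hosts, untreated tumors were at 109, 71.8 and 40.9 CPM, anti-PD-1-treated ones at 20.1, 58.9 and 37.3, and IgG-treated ones at 64.4, 46.9 and 23.6. Untreated WT tumors at day 7 lay below untreated iNOS KO tumors and below anti-PD-1-treated WT tumors without overlap. Both of those groups hold libraries high in receptor counts, and the part of this was not tested.

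**Figure D1:**
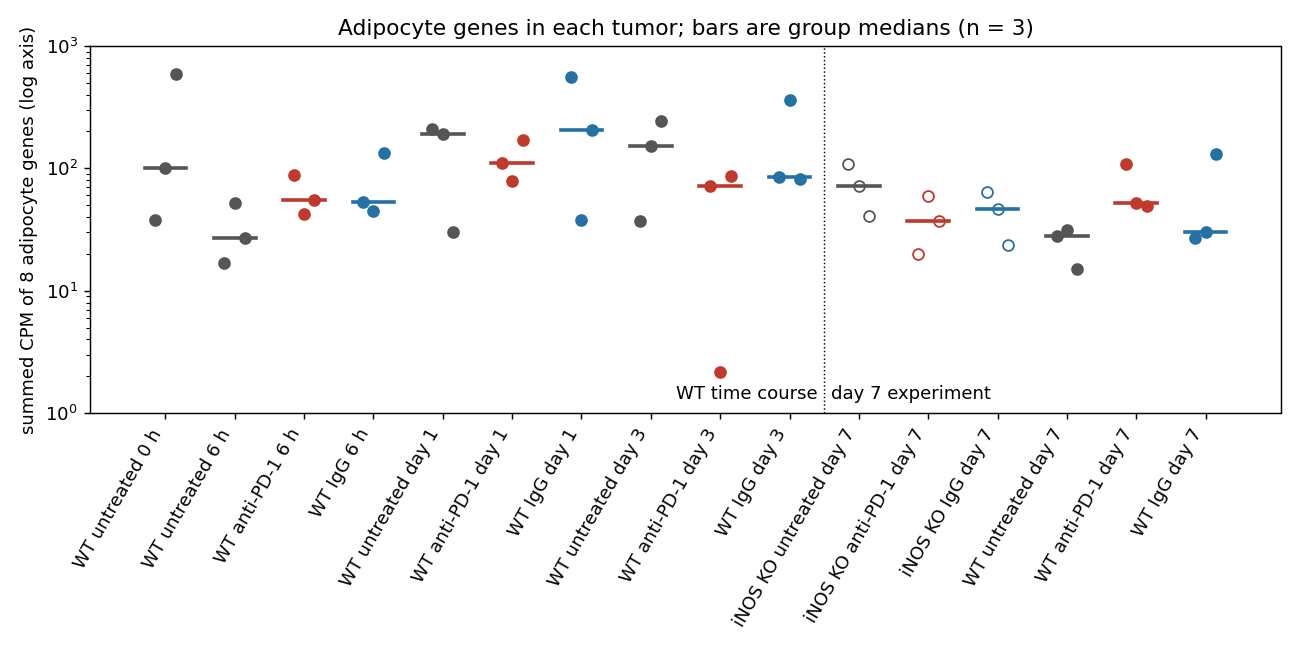
Summed CPM of the 8 adipocyte genes in each of 48 tumors (y axis, log scale), by group on the x axis, with gray for untreated, red for anti-PD-1 and blue for IgG, open circles for iNOS KO hosts and bars for group medians. The tumors of a group spread over 2.06-fold to 39.5-fold, and the group medians lie between 27.1 and 204 CPM in the time course and between 27.99 and 71.8 CPM at day 7.

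The ratio of the highest to the lowest tumor of a group was between 2.06 and 39.5 (median 3.06), and it exceeded 3 in 8 of 16 groups. Ordered by their medians, from IgG day 1 (204 CPM) to untreated 6 h (27.1 CPM), each of the 9 pairs of neighboring groups of the time course overlapped in range. Farther apart in that order, untreated 6 h lay wholly below anti-PD-1 day 1 and IgG day 3. At day 7 the order ran from iNOS KO untreated (71.8 CPM) over WT anti-PD-1 (52.2), iNOS KO IgG (46.9), iNOS KO anti-PD-1 (37.3) and WT IgG (29.9) to WT untreated (27.99), and all 5 pairs of neighbors overlapped as well.

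Among the adipokines, Adipoq was listed at 0 in 1 library of each experiment and reached 26.97 CPM. In untreated WT tumors it was at 1.08, 5.15 and 26.97 CPM at 0 h, at 0, 1.60 and 0.646 at 6 h, at 9.16, 6.62 and 0.681 at day 1 and at 0.876, 7.47 and 13.5 at day 3. With anti-PD-1 it was at 2.43, 1.35 and 0.886 CPM at 6 h, at 5.78, 3.78 and 7.33 at day 1 and at 3.24, 0.196 and 3.68 at day 3. With IgG it was at 1.496, 1.93 and 5.33 CPM at 6 h, at 24.1, 2.15 and 9.22 at day 1 and at 4.38, 11.99 and 4.24 at day 3. The anti-PD-1 tumors of day 1 and the IgG tumors of day 3 all lay above the untreated tumors of 6 h and the anti-PD-1 tumors of 6 h and day 3, and the IgG tumors of day 1 all lay above the untreated tumors of 6 h. The other pairs of groups overlapped. For anti-PD-1 against IgG at day 3, 4.83% of all genes were lower without overlap. For the other separated pairs that share was not counted.
At day 7, Adipoq was at 0.636, 0.707 and 0 CPM in untreated WT tumors and at 5.55, 1.15 and 1.32 in untreated iNOS KO tumors. With IgG it was at 0.356, 0.869 and 6.83 CPM in WT and at 2.32, 1.46 and 0.351 in iNOS KO hosts, and with anti-PD-1 at 3.49, 1.14 and 1.52 in WT and at 0.758, 2.67 and 0.915 in iNOS KO hosts. The untreated WT tumors lay below the untreated iNOS KO tumors and below both anti-PD-1 groups without overlap, and they overlapped with both IgG groups. Between untreated hosts, 9.87% of all genes were higher in iNOS KO without overlap. For untreated WT against the anti-PD-1 groups that share was not counted. The lowest WT anti-PD-1 tumor, at 1.14 CPM, is replicate 3, a library high in receptor counts. The share of its Adipoq counts expected at the receptor rate is given below, and its part in this separation was not tested. A count of 0 allows up to 0.094 CPM in WT untreated 6 h replicate 1 and up to 0.0876 CPM in WT untreated day 7 replicate 3 (3 counts, counting error only).
Cfd was the most abundant adipokine transcript. It ran from 0.112 to 186 CPM in the time course (median 21.4), a 1662-fold range, and from 0.496 to 36.5 CPM at day 7 (median 7.68). Retn ran from 0 to 21.4 CPM (median 2.54) in the time course and from 0 to 4.59 CPM (median 0.611) at day 7. Lep was the lowest member, from 0 to 10.5 CPM (median 1.55) and from 0 to 5.36 CPM (median 0.412), with 2 libraries at 3 counts or fewer in each experiment.

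The droplet genes had a similar reach. Plin1 ran from 0.564 to 76.7 CPM in the time course (median 4.52) and from 0.243 to 9.22 CPM at day 7 (median 1.19). Plin4 ran from 0.140 to 88.0 CPM (median 9.89) and from 0 to 16.9 CPM (median 4.78). Cidec ran from 0.157 to 40.4 CPM (median 4.53) and from 0 to 7.31 CPM (median 1.63). Of the 8 members, 6 had their highest value of the time course in WT untreated 0 h replicate 3, and Cidec and Fabp4 had theirs in WT IgG day 1 replicate 2. These 2 tumors differed in other host tissue. The first is the library with high muscle and keratinocyte genes, while the second held 20.5 CPM of muscle and 5.71 CPM of keratinocyte genes with 553 CPM of the adipocyte genes.
Fabp4 was the most abundant member, with a median of 32.1 CPM in the time course (0.364 to 205) and of 23.6 CPM at day 7 (11.7 to 53.2). Its range at day 7 was 4.54-fold, where each of the other 7 members ranged over at least 37.9-fold.
Per kilobase of the longest coding transcript, the order of the median levels in the time course was Fabp4 (35.9 CPM per kb), Cfd (23.3), Adipoq (2.89), Cidec (2.64), Retn (2.23), Plin4 (1.72), Plin1 (1.60) and Lep (0.476). Fabp4 was above Cfd in 25 of 30 libraries, Cfd above Adipoq in 29, and Plin1 above Lep in 30. The middle of the order was not stable, since Adipoq was above Cidec in 10, Cidec above Retn in 18, Retn above Plin4 in 20 and Plin4 above Plin1 in 13 of 30 libraries. At day 7 the order was Fabp4 (26.4 CPM per kb), Cfd (8.33), Cidec (0.945), Adipoq (0.886), Plin4 (0.830), Retn (0.536), Plin1 (0.422) and Lep (0.126). Fabp4 was above Cfd, Cfd above Cidec, and Plin1 above Lep in 18 of 18 libraries each, and the middle was again mixed.

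**Figure D2:**
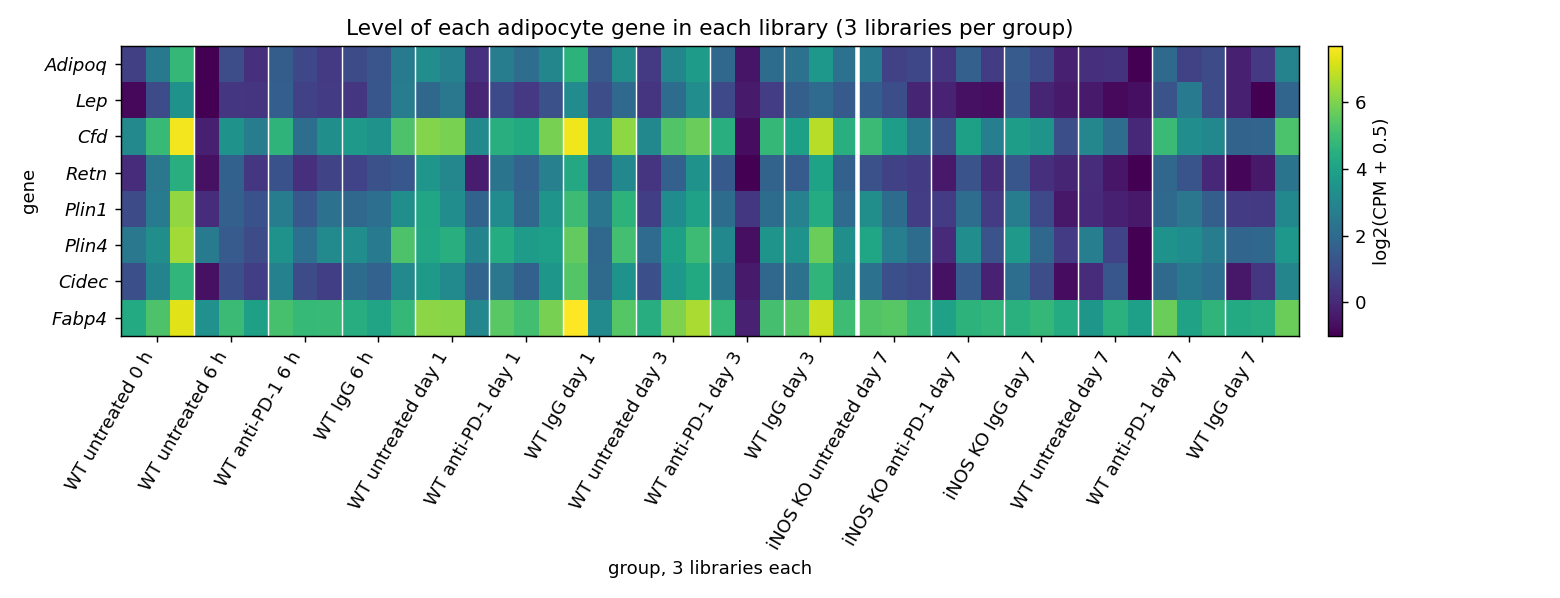
Level of each adipocyte gene (rows) as log2(CPM + 0.5) in each library (columns, 3 per group in the order of replicate numbers, with a thick line between the experiments). Whole columns are bright or dark together, as in WT untreated 0 h replicate 3 and WT anti-PD-1 day 3 replicate 4, and the Fabp4 row stays bright at day 7 where the other rows are dark.

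The spread between tumors of a group was large for these genes compared with other genes of at least 1 CPM. The coefficient of variation between tumors of 1 group, as edgeR estimates it, was 0.801 (Fabp4) to 0.992 (Retn) in the time course, against a median of 0.255 over the 15244 genes with at least 1 CPM. This put the 8 members at percentiles 96.1 to 98.0 of those genes. At day 7, 7 members were between 0.791 (Cfd) and 1.02 (Retn and Cidec), at percentiles 94.4 to 97.4 of 16117 genes with a median of 0.223. Fabp4 at 0.343 was at percentile 67.5. The single value that edgeR fits to all genes tested, those of lower level included, was 0.671 in the time course and 0.789 at day 7. At day 7 the members other than Fabp4 thus lay at or somewhat above that value. Lep and Retn had day 7 medians under 1 CPM (0.412 and 0.611), so the comparison sets them against genes of higher level.

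The 8 genes moved together from tumor to tumor. On log2(CPM + 0.5), the 28 pairs of members had Pearson r of 0.737 to 0.955 (median 0.875) and Spearman rho of 0.769 to 0.958 over the 30 libraries of the time course, where both genes of a pair share the size factor of each library. With group means removed, r was 0.745 to 0.956, so the members moved together among tumors of the same treatment and time. At day 7 (18 libraries), r was 0.449 to 0.922 (median 0.822), and 0.222 to 0.910 with group means removed.
Adipoq followed the mean of the other 7 members most closely in the time course, with r = 0.971 and a slope of 1.0 on the log2 scale. Cidec (r = 0.953, slope 1.0), Retn (0.943, 0.968) and Plin1 (0.940, 0.949) were close to it, while Lep had r = 0.876 and a slope of 0.692. Cfd had the steepest slopes, 1.37 in the time course and 1.40 at day 7.
Fabp4 was the exception at day 7. Its r with the mean of the other 7 was 0.676 with a slope of 0.379, and its pairs with the other members had r between 0.449 and 0.762, where the 21 pairs without it had 0.623 to 0.922. It kept a base level in tumors with almost no other fat cell RNA. In WT untreated day 7 replicate 3, Adipoq, Retn, Plin4 and Cidec were all at 0, Lep was at 0.146, Plin1 at 0.263 and Cfd at 0.496 CPM, and Fabp4 was at 14.3 CPM. Fabp4 was 94.0% of the members' sum in that library. In WT untreated 6 h replicate 1, where Adipoq and Lep were at 0, Fabp4 was at 9.97 CPM and Plin4 at 5.52 CPM, with 1474 CPM of skeletal muscle genes. In contrast, Fabp4 was at 0.364 CPM in WT anti-PD-1 day 3 replicate 4, whose 10 endothelial genes summed to 35.1 CPM, the lowest of the time course (median 294).

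**Figure D3:**
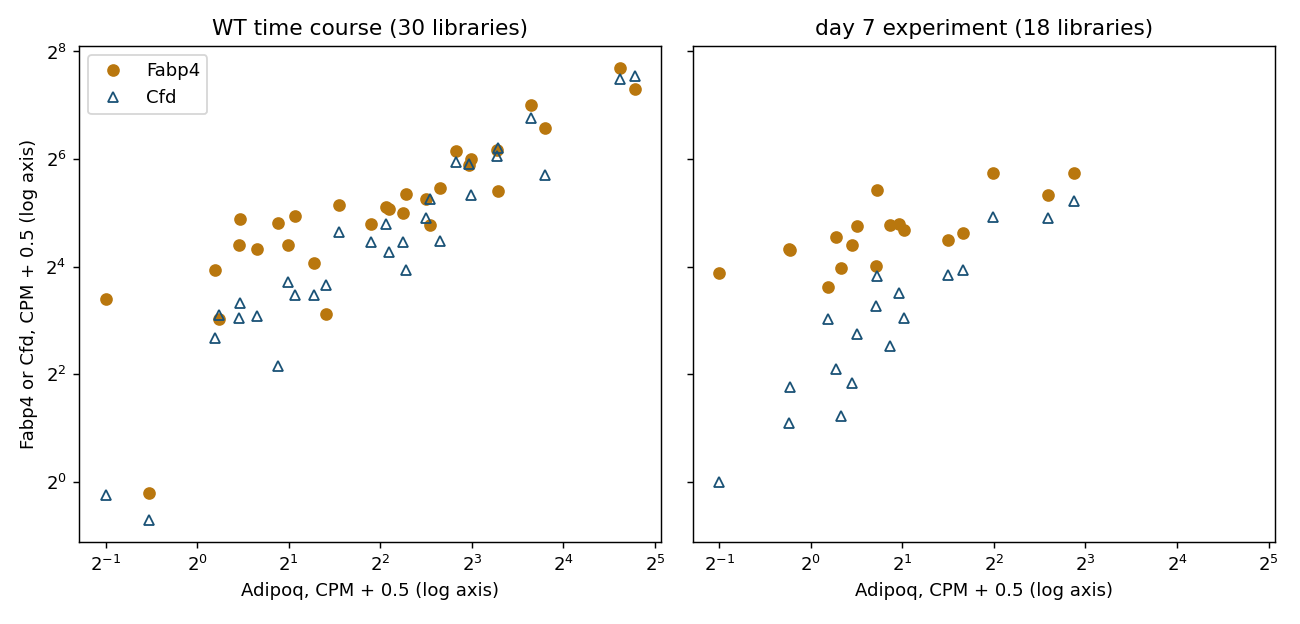
Fabp4 (filled circles) and Cfd (triangles) against Adipoq, as CPM + 0.5 on log axes, in the 30 time-course libraries (left) and the 18 day 7 libraries (right). At day 7 Fabp4 stays between 11.7 and 53.2 CPM while Cfd follows Adipoq down.

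Over the 30 libraries of the time course, the level of Fabp4 had r = 0.945 with the mean of the 10 endothelial genes (rho 0.905, and 0.906 without the 2 libraries farthest from the median). At day 7 the same r was 0.491 (rho 0.129). The other members also followed endothelium in the time course, with r of 0.606 (Lep) to 0.797 (Retn). Of what the other members did not account for in Fabp4, r with endothelium was 0.565 in the time course, but rho was 0.172 and r was 0.062 without the 2 libraries farthest from the median. At day 7 this r was 0.528 with macrophage genes (rho 0.598), 0.435 with endothelium (rho 0.385) and 0.413 with fibroblast genes (rho 0.422). The remaining lists ran from -0.481 (keratinocyte) to 0.207 (melanoma). In the time course r was -0.257 with macrophage and -0.412 with fibroblast genes.

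Other genes of the fat cell were read beside the members. The mean of 40 further fat cell genes had r = 0.953 with the mean of the members in the time course and 0.916 at day 7. All 40 were tested, and 21 of them had r over 0.7 in the time course and 10 at day 7 (medians 0.716 and 0.385). Car3, an abundant cytosolic enzyme of fat cells and muscle, ran from 0 to 505 CPM (r = 0.815 and 0.794), and Lipe, the hormone-sensitive lipase, from 2.13 to 29.9 CPM in the time course (r = 0.793, and 0.835 at day 7). Pparg, the master regulator of fat cell differentiation, had r = 0.848 and 0.510, and Cebpa, its partner, 0.488 and 0.526. Pnpla2, the first lipase of the droplet, had r = 0.413 and -0.175 and was at 40.1 CPM or more in every library.
The genes of fatty acid synthesis, named here after their values were seen, did not follow. Fasn had a median of 1040 CPM in the time course with r = -0.153 (-0.622 at day 7), Acly 277 CPM with r = -0.394 (-0.655), Acaca 136 CPM with r = -0.051 (-0.517) and Me1 167 CPM with r = -0.400 (-0.457). All 4 were at 77.9 CPM or more in every library, those with Adipoq at 0 included. Scd1, a desaturase, differed from them, with r = 0.815 and a highest level of 2398 CPM in the time course, and r = 0.093 at day 7. Ucp1, which marks brown fat, had a median of 0 CPM in both experiments, and the 10 brown and beige fat genes together had r = 0.218 and 0.429 with the members.
Of the genes outside the members with a mean log2 level of at least 1 (13602 in the time course and 13935 at day 7), 5 were among the 25 most like the members' mean in both experiments. Sncg, a synuclein abundant in white fat, ranked first in both (r = 0.953 and 0.841). Lrg1, a secreted glycoprotein, ranked second in both (0.930 and 0.840). Hp, which encodes haptoglobin, had r = 0.917 and 0.788, Dgat2, which makes triglyceride, 0.840 and 0.762, and Slc1a3, a glutamate transporter, 0.872 and 0.758. Sncg and Dgat2 are also among the 40 fat cell genes, and the other 3 are in no list used here.
Other host tissue moved with the members to different degrees. In the time course, r with the members' mean was 0.802 for the 10 endothelial genes (0.718 without the 2 libraries farthest from the median), 0.614 for 12 mammary epithelial genes, 0.482 for 10 fibroblast genes, 0.404 for 10 macrophage genes, 0.353 for 8 neutrophil genes, 0.235 for 12 keratinocyte genes and -0.033 for 15 skeletal muscle genes. At day 7 the endothelial r was 0.276 (0.027 without 2 libraries), the mammary r 0.514, the neutrophil r 0.486, the keratinocyte r 0.392, the muscle r 0.213, the fibroblast r -0.054 (-0.383 without 2 libraries) and the macrophage r -0.005 (-0.422 without 2 libraries). For 5 erythrocyte genes r was 0.468 and 0.075. The 8 melanoma genes ran the other way, with r = -0.485 in the time course and -0.597 at day 7. All of these levels share the total of their library, and the part of that in r was not tested.

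**Figure D4:**
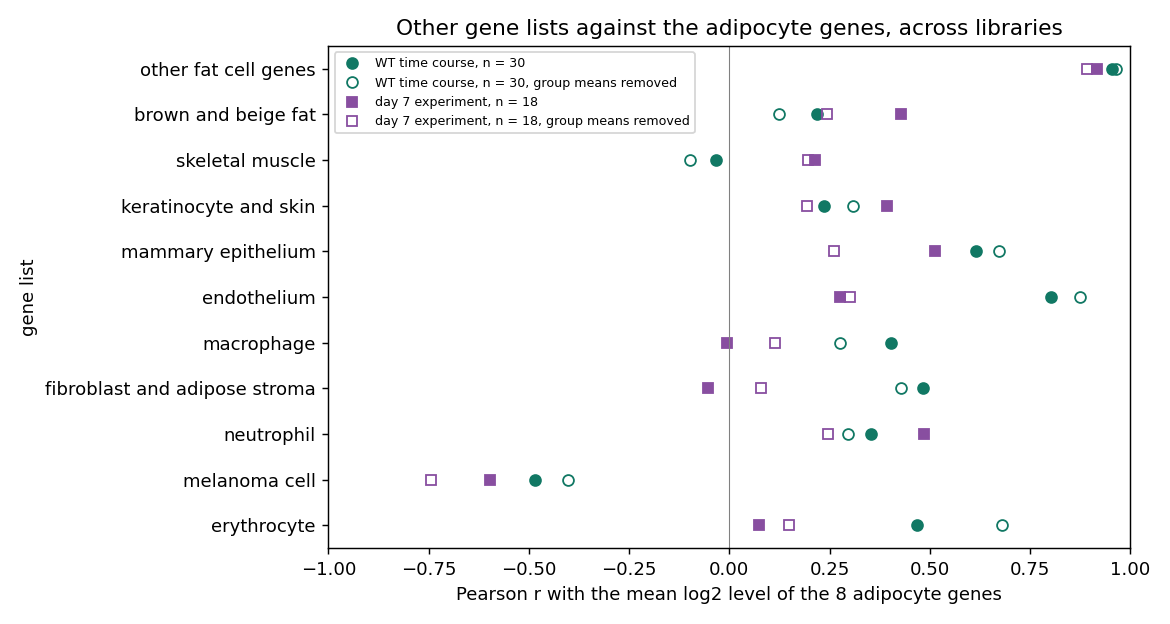
Pearson r (x axis) between the mean log2 level of the 8 adipocyte genes and that of other gene lists (y axis), across the 30 libraries of the time course (circles) and the 18 of day 7 (squares), before (filled) and after (open) group means were removed. The other fat cell genes lie at 0.891 or more, endothelium at 0.802 in the time course and 0.276 at day 7, and melanoma genes below 0.

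Whether treatment or host changed the adipocyte genes was tested with edgeR's quasi-likelihood F-test, with Benjamini-Hochberg adjustment across every gene tested (26848 in the time course and 30837 at day 7). All 8 members passed the filter on low counts in both experiments. At an adjusted p under 0.05, 0 of 8 members were called in each of 18 comparisons, and DESeq2 called 0 in 16 of them and 1 in each of the other two. The p-values measure the spread between individual tumors. Because the members moved together from tumor to tumor, a count of members in a comparison is not a count of separate results.
Across all 10 groups of the time course, the share of all genes called was 0.0%. At an unadjusted p under 0.05, 2 members (Plin1, edgeR adjusted p = 0.715, and Cidec, edgeR adjusted p = 0.861) and 5.7% of all genes passed. Without the filter on low counts, edgeR called 7 of 8 members (not Lep) and 2.85% of all genes. In that fit the moderated dispersion of the members was 1.21 to 4.24, where it was 2.67 to 15.1 with the filter.

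Anti-PD-1 against IgG at 6 h asks for an early effect of the checkpoint antibody. Of the 8 members, 1 was higher and 7 lower, none called (0.0% of all genes called). The median log2 fold change was -0.69, with -0.07 over all genes, and it was 0.10 without WT IgG 6 h replicate 6, the tumor with 133 CPM. The unadjusted threshold of 0.05 was passed by 0 members and 4.38% of all genes. Fabp4 was at 34.9, 27.7 and 28.9 CPM with anti-PD-1 and at 20.6, 16.2 and 26.8 CPM with IgG, with no overlap. It was the 1 member without overlap, where 2.13% of all genes were higher without overlap, and its log2 fold change was 0.53 ± 0.998 (SE).
At day 1, all 8 members were lower with anti-PD-1 than with IgG, by -0.82 to -1.76 on the log2 scale (median -1.23, with -0.01 over all genes). The groups overlapped for each member, and at an unadjusted p under 0.05, 0 members and 3.64% of all genes passed (0.0% at the adjusted threshold). Without WT IgG day 1 replicate 2, the tumor with 553 CPM, the median was -0.15. Over the same tumors the 12 keratinocyte genes had a median of -4.25 and the 15 muscle genes of -2.54. Their part in the result was not tested.
At day 3, all 8 were again lower with anti-PD-1, by -1.53 to -2.13 (median -1.78, with 0.00 over all genes). None was called (0.0% of all genes), and 0 members and 2.14% of all genes passed at an unadjusted p under 0.05. Cidec came closest, at 4.69, 0.280 and 3.30 CPM with anti-PD-1 and at 4.38, 25.2 and 6.82 with IgG, a log2 fold change of -2.13 ± 1.08 (edgeR adjusted p = 1.0). Adipoq (3.24, 0.196 and 3.68 CPM against 4.38, 11.99 and 4.24) and Lep (1.40, 0.280 and 0.989 CPM against 2.59, 3.56 and 2.28) were lower without overlap, 2 of 8 members, as were 4.83% of all genes. The other 6 overlapped. Without WT IgG day 3 replicate 3, the tumor with 365 CPM, the median was -0.81. The muscle genes had a median of -2.24 over the same tumors, and their part in the result was not tested.

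Against untreated tumors of the same time, which share their IgG and untreated libraries with other comparisons, the members were mostly higher at 6 h. With IgG all 8 were higher, by 0.21 to 2.49 on the log2 scale (median 1.90, with 0.10 over all genes), and none was called (0.0% of all genes). Without WT IgG 6 h replicate 6 the median was 1.16. Over the same tumors the keratinocyte genes had a fitted median of 2.16 and the muscle genes of -1.90, and their part in the result was not tested. Plin4 was at 9.07, 5.59 and 37.8 CPM with IgG and at 5.52, 2.33 and 1.46 untreated, a log2 fold change of 2.49 ± 1.13 (edgeR adjusted p = 0.76). Cidec was at 3.73, 2.82 and 8.14 CPM with IgG and at 0.157, 1.68 and 1.01 untreated, a log2 fold change of 2.35 ± 1.12 (edgeR adjusted p = 0.76). These 2 members and 5.42% of all genes passed at an unadjusted p under 0.05. Together with Lep and Plin1 they made 4 of 8 members higher without overlap, where 5.87% of all genes were. With anti-PD-1, 7 of 8 members were higher than untreated at 6 h (median 1.21, with -0.02 over all genes) and none was called (0.0%). Unadjusted, 0 members and 3.3% of all genes passed 0.05. Lep alone was higher without overlap, at 2.53, 1.10 and 0.971 CPM against 0, 0.785 and 0.758, as were 2.67% of all genes.
At day 1, all 8 members were higher with IgG than untreated (median 0.92, with 0.04 over all genes), and the median was -0.10 without WT IgG day 1 replicate 2. The fitted median over the same tumors was 6.95 for the muscle genes (14 of 15 at an unadjusted p under 0.05) and 6.49 for the keratinocyte genes (11 of 12). Their part in the result was not tested. None of the members was called (0.0%), and 0 of them and 5.43% of all genes passed at an unadjusted p under 0.05. At day 3, 6 were higher and 2 lower (median 0.23), with a median of -0.84 without WT IgG day 3 replicate 3. None was called (0.0%), and 0 members and 2.64% of all genes passed at an unadjusted p under 0.05. Between untreated tumors of day 3 and 0 h, which asks for a change with growth, 7 members were lower at day 3 (median -0.78), and none was called (0.0%), with 0 members and 6.89% of all genes at an unadjusted p under 0.05. That direction rests on 1 tumor, since the median was 1.24 without WT untreated 0 h replicate 3. The keratinocyte genes had a fitted median of -9.12 (12 of 12 at an unadjusted p under 0.05) and the muscle genes of -3.90 (4 of 15), and their part in the result was not tested. Plin1 shows it, at 1.51, 5.54 and 76.7 CPM at 0 h and at 1.03, 8.74 and 15.3 CPM at day 3.

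At day 7, the test across all 6 groups called 0 of 8 members and 2.1% of all genes. At an unadjusted p under 0.05, Lep (edgeR adjusted p = 0.155) and 29.2% of all genes passed. Without the filter on low counts, edgeR called 6 members (not Adipoq or Retn) and 14.4% of all genes.
Untreated tumors labelled iNOS KO against untreated WT tumors gave the most members without overlap. The comparison asks for an effect of the host's iNOS without therapy. All 8 members were higher in the tumors labelled iNOS KO, by 1.15 to 3.57 on the log2 scale (median 2.13, with 0.50 over all genes). None was called, against 0.603% of all genes. Other lists differed between the same tumors, with fitted medians of 4.49 for mammary epithelium (4 of 9 genes tested at an unadjusted p under 0.05), 4.03 for neutrophils (1 of 6), 2.43 for keratinocytes (3 of 12) and -1.23 for fibroblasts (5 of 10). Mammary genes were at 30.6 CPM in iNOS KO untreated replicate 1, a library high in receptor counts. They were at 4.0 and 3.92 CPM in its replicates 2 and 4. The part of these lists in the result was not tested. Plin1 was at 9.22, 3.73 and 0.999 CPM in tumors labelled iNOS KO and at 0.557, 0.339 and 0.263 CPM in WT tumors (log2 fold change 3.57 ± 1.06, edgeR adjusted p = 0.168). Fabp4 was at 39.5, 42.6 and 26.9 CPM against 11.7, 23.01 and 14.3 CPM, a log2 fold change of 1.15 ± 0.40 (edgeR adjusted p = 0.253). Both differed without overlap, as did Adipoq, Lep (2.502, 1.63 and 0.432 CPM against 0.265, 0.0848 and 0.146) and Retn (1.75, 1.15 and 0.972 CPM against 0.583, 0.226 and 0). These were 5 of 8 members, where 9.87% of all genes were higher without overlap. The members are not independent of each other (median r of their pairs 0.822 at day 7), so the 5 are not separate results. At an unadjusted p under 0.05, 4 members (Plin1, Fabp4, Lep and Adipoq) and 16.8% of all genes passed.
The call for Plin1 depended on the fit. DESeq2 called it (log2 fold change 3.67, adjusted p = 0.0224) with 3.11% of all genes, and so did edgeR without iNOS KO untreated replicate 4 (log2 fold change 4.0, adjusted p = 0.0249) with 0.891% of all genes. Without the filter on low counts, edgeR called 5 members (Adipoq, Cfd, Fabp4, Plin1 and Plin4) and 2.63% of all genes. With the receptor level of each library as a covariate, the log2 fold change of Plin1 was 2.54 (edgeR adjusted p = 0.652). Without iNOS KO untreated replicate 1, 1 of the 3 libraries high in receptor counts, the median of the members was 1.35. At the rate per kilobase of the receptor genes, 21.6% of the Lep counts and 8.14% of the Plin1 counts of that library would be expected. Their part in the result was not tested.

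In WT hosts at day 7, all 8 members were higher with IgG than untreated, by 0.93 to 3.04 (median 2.20, with 0.08 over all genes), and none was called (0.0%). Plin1 was at 0.949, 0.902 and 7.83 CPM with IgG and at 0.557, 0.339 and 0.263 untreated, a log2 fold change of 3.04 ± 1.04 (edgeR adjusted p = 0.54). It was the 1 member higher without overlap, as were 5.93% of all genes. At an unadjusted p under 0.05, 4 members (Plin1, Fabp4, Adipoq and Lep) and 8.47% of all genes passed. The difference rests on 1 tumor, WT IgG replicate 3 with 131 CPM, and without it the median was 0.23. Without the filter on low counts, edgeR called 5 members (Adipoq, Cfd, Fabp4, Plin1 and Plin4) and 1.3% of all genes. This comparison and the last share the 3 untreated WT tumors. In hosts labelled iNOS KO, all 8 members were lower with IgG than untreated (median -0.71, with -0.46 over all genes). None was called, against 0.152% of all genes, and 0 members and 16% of all genes passed at an unadjusted p under 0.05. Over the same tumors the fitted median was 1.97 for fibroblast genes (10 of 10 at an unadjusted p under 0.05). For mammary epithelium it was -4.46 (4 of 9 genes tested). Their part in the result was not tested.
For anti-PD-1 against IgG in WT hosts at day 7, 7 members were higher (median 0.17, below the 0.76 over all genes), none called (0.0%), with 0 members and 16.1% of all genes at an unadjusted p under 0.05. Without WT IgG replicate 3 the median was 2.12. In hosts labelled iNOS KO, 7 were lower (median -0.31, with 0.00 over all genes), none called (0.0%), with 0 members and 1.98% of all genes at an unadjusted p under 0.05. The difference between these 2 effects was tested as an interaction. Its median was -0.48, close to the -0.54 over all genes, and no member was called (0.0%), with 0 members and 7.51% of all genes at an unadjusted p under 0.05. Lep had the largest, -3.36 ± 1.72 (edgeR adjusted p = 0.672). The keratinocyte genes had fitted medians of 2.84 in WT hosts, -4.18 in hosts labelled iNOS KO and -7.19 for the interaction. At an unadjusted p under 0.05, 3, 3 and 10 of 12 of them passed. Their part in the results was not tested.
Between hosts under IgG, all 8 members were lower in tumors labelled iNOS KO (median -0.52, with -0.08 over all genes), none called (0.0%), with 0 members and 6.87% of all genes at an unadjusted p under 0.05. The median was 1.48 without WT IgG replicate 3. Between hosts under anti-PD-1, all 8 were lower in tumors labelled iNOS KO, with a median of -1.04 where all genes had -0.92, and none was called (0.0%). With each tumor left out in turn the median was -2.02 (without iNOS KO anti-PD-1 replicate 2) to -0.57 (without iNOS KO anti-PD-1 replicate 1). Over the same tumors the fitted medians were -7.69 for neutrophils (4 of 6 genes tested at an unadjusted p under 0.05), -4.89 for mammary epithelium (5 of 9) and -3.69 for keratinocytes (4 of 12), and their part in the result was not tested. Lep was at 0.392, 0.157 and 0.131 CPM in tumors labelled iNOS KO and at 1.85, 5.36 and 1.52 CPM in WT tumors (log2 fold change -3.65 ± 1.31, edgeR adjusted p = 0.126). Lep was the 1 member at an unadjusted p under 0.05, as were 33% of all genes. Lep and Cidec were lower without overlap, 2 of 8 members, as were 16.7% of all genes. DESeq2 called Lep (adjusted p = 0.0319) with 9.84% of all genes, and edgeR without the filter on low counts called Cfd, Cidec and Lep with 5.52% of all genes.
The WT anti-PD-1 group of day 7 holds 2 of the libraries high in receptor counts. In its replicate 3, 63.6% of the 17 Adipoq counts, 49.9% of the 73 Plin1 counts and 32.8% of the 80 Lep counts would be expected at the rate per kilobase of the receptor genes. In replicate 4, 70.3% of the 10 Retn counts and 48.2% of the 31 Lep counts would be. With the receptor level as a covariate, the log2 fold change of Lep between hosts under anti-PD-1 was -1.94 (edgeR adjusted p = 1.0).

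**Figure D5:**
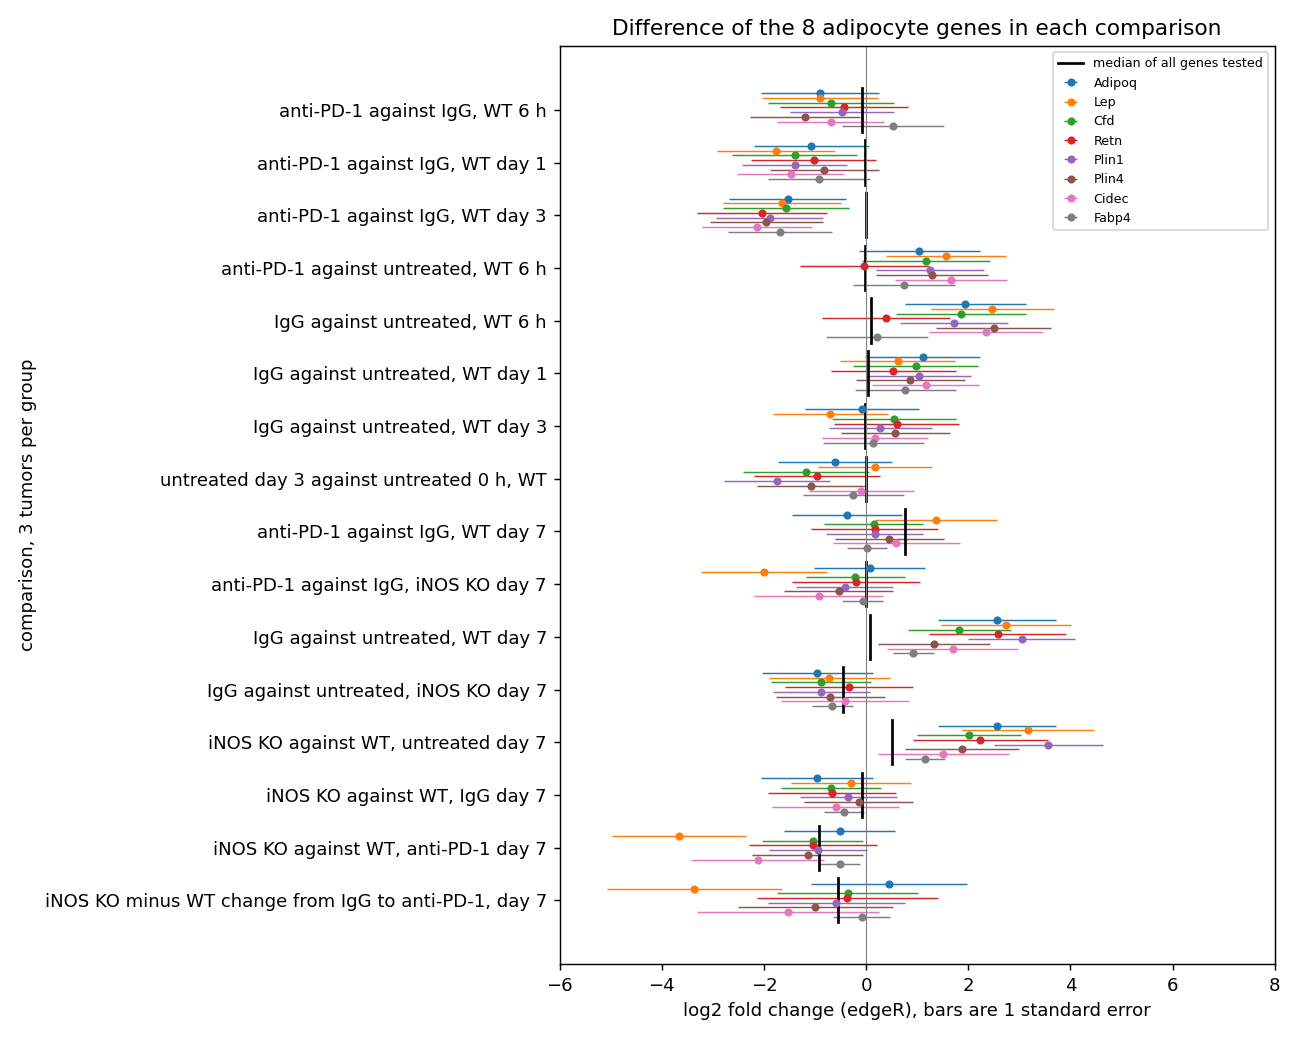
Log2 fold changes of the 8 adipocyte genes (points, x axis, with lines of 1 standard error) and the median over all genes tested (black bar) in each comparison (y axis, 3 tumors a group) of the time course and of day 7. All 8 points lie above 0 for tumors labelled iNOS KO against WT untreated at day 7. All lie below 0 for the same hosts under IgG and under anti-PD-1. They lie below 0 for anti-PD-1 against IgG at day 1 and day 3. For IgG against untreated, all lie above 0 at 6 h, at day 1 and in WT hosts at day 7, and below 0 in iNOS KO hosts. No point passes an edgeR adjusted p of 0.05.

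Of the 40 other fat cell genes, 0 were called by edgeR in any of the 18 comparisons, as were 0 of the 9 brown and beige fat genes tested. At an unadjusted p under 0.05, 10 of the 40 passed across day 7 (29.2% of all genes), 9 between hosts under anti-PD-1 (33% of all genes), 8 between untreated hosts (16.8% of all genes, median log2 fold change 0.18) and 8 between IgG and untreated tumors of WT hosts at day 7 (8.47% of all genes, median 0.41).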

How the data were processed

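RNA-seq was made from 48 B16-D5 tumors. The authors trimmed reads (cutadapt 1.8.1), aligned them to mm10 (STAR 2.7.7a) and counted them per GENCODE vM21 gene, and deposited raw counts. RSEM 1.3.0 is named in the study's methods, while the deposited counts are whole numbers under a name that points to another counter, so the counter is uncertain. Groups were taken from the sample titles. The treatment field matched the title in 14 of 48 samples, and the genotype field said WT in 48 although 9 titles say KO.

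Each experiment was normalized and fitted alone with edgeR 4.0.16 (R 4.3.3): TMM, filterByExpr (minimum count 10), 1 coefficient per group, the quasi-likelihood F-test and Benjamini-Hochberg adjustment over all genes (threshold 0.05). The scripts were tested on simulated data. Levels are CPM on TMM-adjusted totals, except those of receptor genes, which are on plain totals. Correlations used log2(CPM + 0.5). Depth was 25574203 to 47687872 counts (time course) and 11625862 to 40959309 (day 7). No replicates were copies (chi-square per gene 18.3 to 483.2). Floors are 3 counts and cover counting error only. The receptor rate is counts per exonic kilobase over 1502 receptor genes. For Fabp4 the annotated exons span the whole gene, so no expected share is given for it. Promoters are from RefSeq (GRCm38.p6).

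The members and all gene lists were chosen with earlier results of these data known. Named are the 8 members, genes among the 25 most like their mean in both experiments (up to 12), any called gene of the fat lists, and Pparg, Cebpa, Lipe, Pnpla2, Car3 and Ucp1. Shared replicate numbers did not pair tumors: deviations from group means had a median correlation of -0.005 over 65 pairs and -0.013 over 36 pairs. Alternatives were DESeq2 1.42.0, its size factors, plain totals, no filter, a replicate block, the receptor level as a covariate, only the groups compared, and each replicate left out. Tables and figures were made in Python 3.11.15 with matplotlib 3.10.9, scipy 1.17.1, numpy 2.4.6 and pandas 2.3.3.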

Additional observations from a re-analysis of the deposited data

How the results depend on the processing

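Of 256 recounts of the members called, over 18 comparisons, 248 gave the same count of 0. Without the filter on low counts, edgeR called 7 members across the time course, 6 across day 7, 5 for IgG against untreated in WT hosts at day 7, 5 between untreated hosts and 3 between hosts under anti-PD-1. That fit tested 49294 and 51257 genes, and its prior degrees of freedom were 60.1 in the time course, against 5.51 with the filter. At day 7 they were infinite, against 7.97 with the filter. The moderated dispersion of the members at day 7 was 0.547 to 0.736 in that fit, and 1.25 to 8.5 with the filter. DESeq2 called 1 between untreated hosts and 1 between hosts under anti-PD-1. With each replicate left out, 0 to 1 members were called between untreated hosts. Shared replicate numbers did not pair the tumors, and with the replicate as a block 0 members were called in all 18 comparisons. The block turned the median log2 fold change of the members to -1.27 for IgG against untreated at day 3 and to 0.86 for untreated day 3 against 0 h. For the 11 single-member results with an unadjusted p under 0.05, no sign changed in 131 recomputed values, and 10 of these passed the threshold where the reported value had not. The medians over all members did change sign, as given below. The cause was not tested.

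Counts over all genes moved more. Across day 7 edgeR called 647 genes, and 7389 without the filter, 234 with the block, 385 with the receptor covariate, 291 to 6943 with a replicate left out and 3909 by DESeq2. Between untreated hosts it called 186, and 1349 without the filter, 29 with the covariate, 48 to 339 with a replicate left out and 960 by DESeq2. For IgG against untreated in hosts labelled iNOS KO it called 47, and 1363 without the filter, 80 with DESeq2's size factors, 71 with the block, 0 with the covariate, 466 with only the groups compared, 2 to 296 with a replicate left out and 710 by DESeq2. Across the time course it called 0, and 1405 without the filter, 28 with the covariate, up to 247 with a replicate left out and 442 by DESeq2. Leaving out each replicate for the members' median log2 fold change was chosen after seeing the data. Beside the changes given with the comparisons, it turned the median to -0.32 for anti-PD-1 against IgG in WT hosts at day 7 (without WT IgG replicate 1), and in hosts labelled iNOS KO to 0.47 for the same contrast and to 0.33 for the interaction (both without iNOS KO IgG replicate 1) and to 0.02 for IgG against untreated (without iNOS KO untreated replicate 1). With 3 tumors a group and this spread between tumors, the intervals of the members' fold changes are wide, and the counts of Lep and Retn at day 7 are low.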
